A study of Drosophila melanogaster with 24 samples.

Results

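Of the 17698 genes counted in larval fat bodies, 64 genes whose FlyBase symbol is a CG number were switched up in control larvae between days 4 and 5 after egg laying and stayed well below that level in tumour-bearing larvae at days 5, 8 and 11. The 64 members were chosen on group means of CPM, a gene's counts brought to a common library size with TMM factors between libraries: control day 5 at or above 5 CPM, a ratio of control day 5 to control day 4 of at least 4 with 0.5 added to both means, and each of tumour days 5, 8 and 11 under 33.3% of control day 5. CG1607 was not eligible. All 64 members passed the low-count filter, as did 8707 genes in all, of which 2785 carry a CG number. In all, 121 CG-numbered genes met the control part of the rule, and the 64 members are those that also met the tumour part. A working name for the set held that these genes are never induced with tumours. Of the 64, 33 (51.6%) were called higher at tumour day 8 than at tumour day 5, against 12% of all genes tested. These 33 had a median of 13.5% of control day 5 at tumour day 8. The working name was therefore not kept, and the set is called here by its rule, the genes held low with tumours.

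The fat body is the larval organ that stores fat, glycogen and protein and secretes much of the blood's protein. Near the end of larval life, pulses of the steroid hormone ecdysone act through the receptor EcR and its partner usp, first on early genes that encode transcription factors such as br, Eip74EF and Eip75B, and through these on many later genes. Larvae with disc tumours are known to delay or miss pupariation, which normally follows the late larval pulse.

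The tumour-bearing larvae were C855a-Gal4/UAS-scrib-RNAi at days 4, 5, 8 and 11, and the control larvae were C855a-Gal4/UAS-control-RNAi at days 4 and 5. Every group thus carried C855a-Gal4, an epithelial driver, and the tumour groups knocked down scrib, which epithelial cells need for their polarity. Each of the 6 groups held 4 libraries, each library pooled the fat bodies of 50 larvae from a 3 hour egg collection, and no day 8 or day 11 control is used here. Whether the pools came from separate cultures is not in the labels. A p-value therefore measures no more than how far these pools differed. In a pooled tissue fewer cells of a type and less RNA per cell cannot be told apart.

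Total counts ranged from 16074877 to 23352151 per library. Fat body markers (19) summed to between 61470 and 650500 CPM in the 24 libraries, and the sum was lower late, with 61500 to 82200 CPM at tumour day 11 against 556000 to 651000 CPM at tumour day 4. A few genes weigh heavily in this sum, with up to 299000 CPM of Fbp1 and 240000 CPM of Lsp1beta in a library. Of 18 tested at tumour day 11 against day 4, 4 were called higher and 10 lower (edgeR, adjusted p under 0.05), against 29.9% and 32.8% of all genes tested. Their median log2 fold change was -0.36. Of the adult yolk protein genes, Yp1 stayed at or below 0.798 CPM and Yp2 at or below 4.29 CPM, while Yp3 ran from 1.14 to 890 CPM. RNA of other tissues was uneven. The sum over 12 salivary gland markers was at most 245 CPM in any tumour library, against 1668 CPM in control day 5 (replicate 3) and 1567 CPM in control day 4 (replicate 2). The sum over 13 gut markers was 448 and 317 CPM in replicates 1 and 2 of tumour day 5, and replicate 1 also held 96.8 CPM of testis markers. The gut sum was 246 to 626 CPM at control day 5 against 25.1 to 131 CPM at control day 4, the 2 groups whose ratio chose the members. The gut list includes LManI, which itself met the numeric limits of the rule. Its mean was 307.6 CPM at control day 5 and 19.8 CPM at control day 4. Of the 9 gut markers tested between these groups, 1 was called higher and 1 lower, against 25.8% and 29.2% of all genes tested. Haemocyte markers (11) summed to 446 to 740, 602 to 800, 715 to 923 and 1100 to 1320 CPM at tumour days 4, 5, 8 and 11, and imaginal disc markers (10) to 81.7 to 102, 94.6 to 139, 134 to 167 and 132 to 166 CPM. All markers of both lists were detected in each tumour group. The part of these tissues in the results was not tested. Counts of members called were also taken without the 2 controls rich in salivary gland markers and without these 2 gut-rich tumour libraries.

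The values that chose the members are given as a description, without a test. The members' control day 5 means ran from 5.12 to 9208 CPM with a median of 72.7 CPM, and their ratio to control day 4 from 4.19 to 578 with a median of 8.43. As a share of control day 5, the median member stood at 4.19% at tumour day 4, 6.34% at day 5, 16.3% at day 8 and 12.2% at day 11, and at 8.56% in control larvae of day 4. The highest tumour mean of days 5, 8 and 11 fell on day 5 for 9 members, on day 8 for 39 and on day 11 for 16. In 59 members the lowest control day 5 library lay above all 16 tumour libraries, and 18 members stayed under 10% of control day 5 at tumour days 5, 8 and 11. The rule favours both counts, since it bounded the means of tumour days 5, 8 and 11, and no share over all genes was taken.

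**Figure D1:**
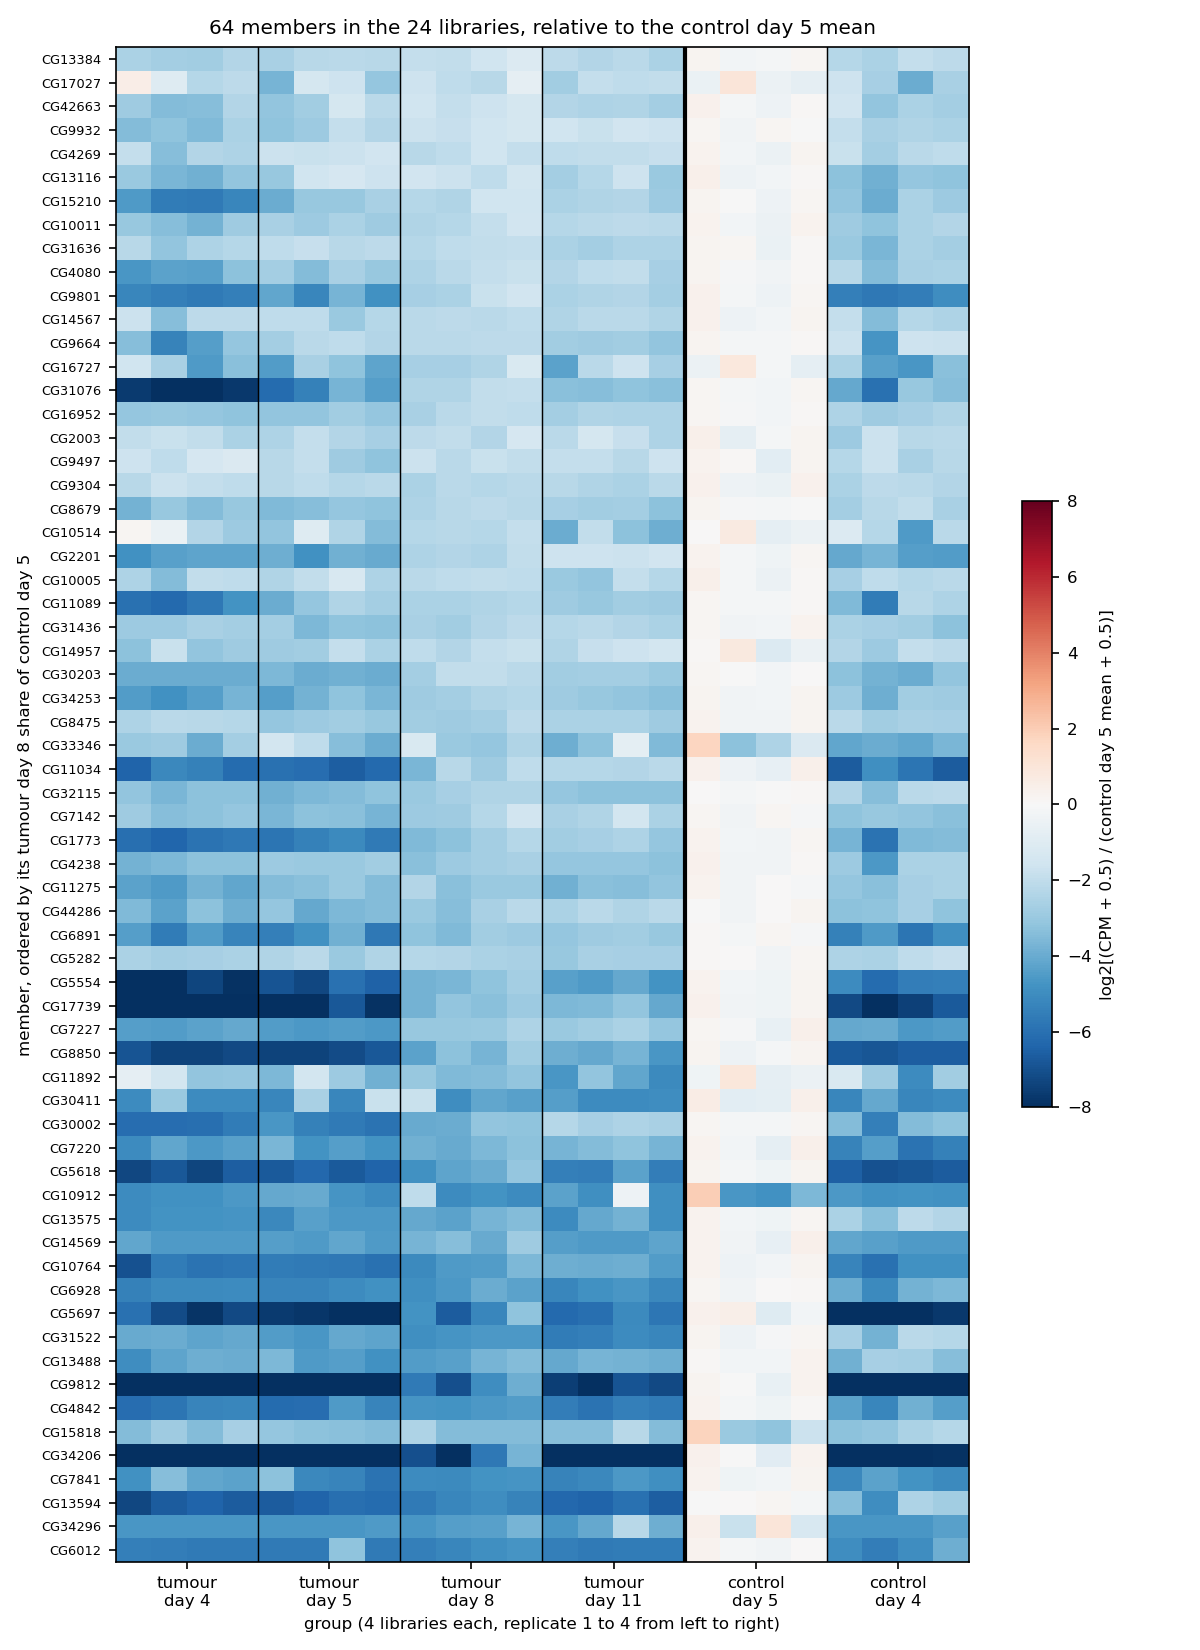
Each row is a member and each column a library, with color giving log2 of the CPM over the control day 5 mean, 0.5 added to both, for the tumour days 4, 5, 8 and 11 at left and control days 5 and 4 at right. Rows run from the members with the highest tumour day 8 share of control day 5 (33% for CG13384) downward, and blue deepens toward tumour days 4 and 5 in many rows.

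**Figure D2:**
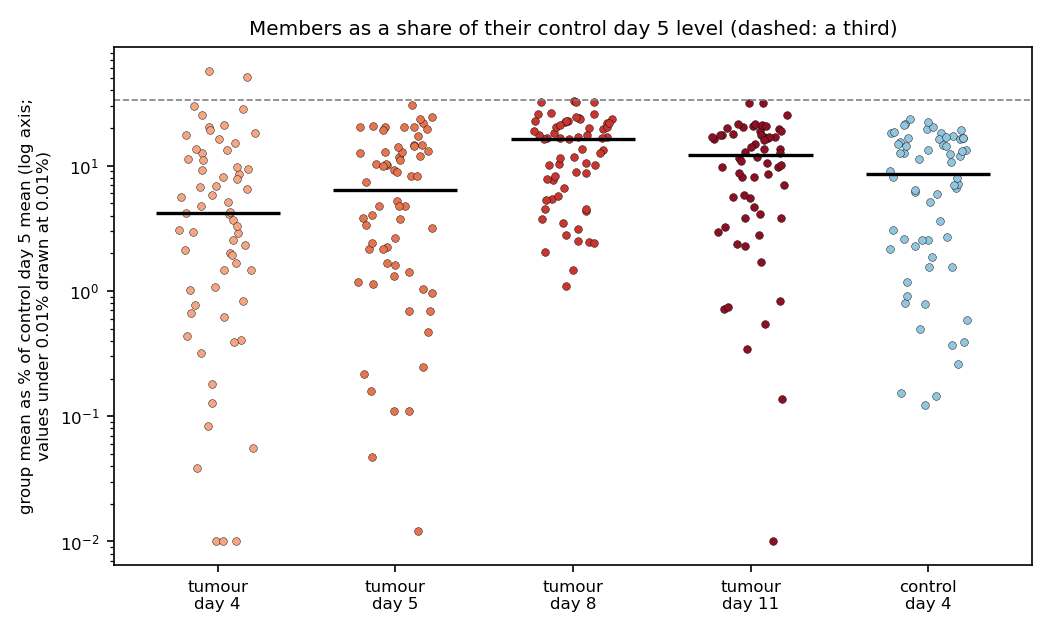
Each point is a member's group mean as a percentage of its control day 5 mean, on a log axis, and bars mark the medians of 4.19%, 6.34%, 16.3% and 12.2% at tumour days 4, 5, 8 and 11 and 8.56% at control day 4. No point of tumour days 5, 8 and 11 lies above the dashed line at 33.3%, since the rule set it there, whereas tumour day 4 was free and 2 of its points, CG17027 (57.5%) and CG10514 (51.2%), lie above.

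CG11089 (FBgn0039241; chromosome 3R, 24877045 to 24881478, BDGP6.54 annotation) was the most abundant member, also per kilobase of exon, at 4030 CPM per kilobase in control day 5. Its annotation carries the synonym atic, for the enzyme of the last steps of purine synthesis. It had 145, 123, 176 and 337 CPM at tumour day 4, 593, 1057, 1749 and 1402 CPM at day 5, 1559, 1591, 1731 and 1905 CPM at day 8 and 1293, 1104, 1321 and 1269 CPM at day 11. Control libraries had 10430, 8236, 8429 and 9741 CPM at day 5 and 793, 186, 1988 and 1688 CPM at day 4. The tumour libraries of days 5, 8 and 11 lay within the range of the day 4 controls, and none reached any day 5 control.

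CG9812 (FBgn0034860; 2R, 23412320 to 23419684) had the largest control ratio. Its libraries held 0.421, 0.884, 2.29 and 0.151 CPM at day 4, 0.203, 0.269, 3.42 and 0.765 CPM at day 5, 47.8, 18.1, 76.3 and 163 CPM at day 8 and 12.8, 4.32, 19.8 and 16.2 CPM at day 11. Controls averaged 2446 ± 614 CPM at day 5 (SD, n = 4) and 3.73 ± 0.901 CPM at day 4, a ratio of 578. Every tumour day 8 library exceeded every tumour library of days 4 and 5, yet the day 8 mean was 3.12% of control day 5. CG5554 (2R, 23845001 to 23847024) stood at a higher share, with means of 1.03%, 10.3% and 4.66% of its control day 5 level of 2179 ± 457 CPM (SD, n = 4) at tumour days 5, 8 and 11.

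CG34206 (FBgn0085235; 2R, 22163738 to 22164594) and CG13594 (2R, 24615423 to 24638588) stood farthest below control day 5, whose means were 38.8 and 38.7 times the highest tumour mean of days 5, 8 and 11. CG34206 had 2.18, 0.236, 6.26 and 26.1 CPM at tumour day 8, and controls of day 5 had 443, 353, 190 and 439 CPM. At tumour days 4, 5 and 11 none of its libraries exceeded 0.0702 CPM. Replicate 4 thus held the largest part of its tumour day 8 signal. CG9812 came next with a ratio of 31.8, followed by CG4842, CG6012, CG7841, CG5697, CG6928, of the sulfate transporter family, and CG31522, a fatty acid elongase by sequence, at 20.4 to 24.7, and CG10764, a serine protease, at 16.5.

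The members nearest each limit of the rule, and the CG-numbered genes that failed only that limit, were as follows. CG5282 and CG15818 (both 5.12 CPM) and CG14957 (5.16 CPM) were the lowest control day 5 means, with CG44004 (4.62), CG33203 (4.53) and CG32117 (4.43) just outside. CG9664 (4.19), CG10514 (4.26) and CG4269 (4.4) had the lowest control ratios, with CG33099 (3.99), CG32100 (3.93) and CG12224 (3.93) outside. At tumour day 5 the highest members were CG4269 (30.8%), CG31636 (24.3%) and CG13116 (23.8%), with CG4629 (40.4%), CG16719 (45.5%) and CG12896 (71.8%) outside. At day 8 they were CG13384 (33%), CG17027 (32.4%) and CG42663 (32.2%), with CG9393 (34.2%) and CG2444 (41.5%) outside. At day 11 they were CG9932 (31.9%), CG2201 (31.6%) and CG4269 (25.6%), with CG32845 (34.5%), CG44006 (38.5%) and CG30089 (38.5%) outside. With each of the 24 libraries left out in turn, 50 members met the rule every time and 14 missed it at least once. The number of members ran from 58, without replicate 1 of control day 5, to 74, without replicate 3 of that group.

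Some members owe their control day 5 mean to 1 library. CG10912 had 11.4 CPM in replicate 3 of tumour day 11, 3.51 CPM in replicate 1 of tumour day 8 and at most 0.47 CPM in the other tumour libraries, and at control day 5 it had 61.2 CPM in replicate 1 and at most 0.833 CPM in the other 3. CG33346, a nuclease by sequence, had 4.52 CPM in that tumour day 11 library, 3.21 CPM in that tumour day 8 library and, at control day 5, 28.2 CPM in replicate 1 and at most 3.39 CPM in the other 3. CG15818, a C-type lectin by sequence, had at most 0.714 CPM in any tumour library and, at control day 5, 19 CPM in replicate 1 and at most 1.19 CPM in the other 3. All 3 failed the rule without replicate 1 of control day 5. Gut markers summed to 460.5 CPM in replicate 3 of tumour day 11 and 320 CPM in replicate 1 of tumour day 8, the highest sums of their groups, and to 626, 256.5, 246 and 564 CPM in the control day 5 libraries. These sums include LManI, which met the numeric limits of the rule and had a mean of 307.6 CPM at control day 5. Replicate 4 of control day 5 had 0.833 CPM of CG10912, 3.39 CPM of CG33346 and 1.19 CPM of CG15818, in each case the next highest of its group after replicate 1. The part of gut RNA in these values was not tested. CG10912 and CG33346 were named after their values were seen.

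At day 4, a day before the control induction, 22 members were lower with tumours than in controls and none was called higher. The comparison asked whether the fat bodies differed before the day on which controls switched the genes up. Of 64 members 22 were called lower with tumours and 0 higher (edgeR's quasi-likelihood test, p adjusted by Benjamini-Hochberg over 8707 genes), whereas 10.5% of all genes tested were called lower and 14.6% higher. At an unadjusted p under 0.05, 30 were lower and 2 higher, and DESeq2 called 27 lower and 2 higher. The median log2 fold change was -0.60 over the members and 0.01 over all genes tested. In 16 members (25%) every tumour library lay below every control library, as in 7.21% of all genes tested. The rule required control day 4 to be low against control day 5 and did not use tumour day 4.

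CG31076 (FBgn0051076; 3R, 26989035 to 26989852) differed most by a called fold change, at 0.561, 0.354, 0.124 and 0.53 CPM in tumour libraries of day 4, against 12.5, 2.98, 26.1 and 20.2 CPM in controls (-5.31 ± 0.67 SE, adjusted p = 7.2e-06, edgeR). CG13594 had 0.0702, 0.354, 0.557 and 0.379 CPM against 7.66, 2.25, 15.4 and 12.2 CPM (-4.74 ± 0.50). In both genes the groups were far apart and replicate 2 was the lowest control. CG30002, a serine protease (-3.17 ± 0.50), CG13575 (-3.06 ± 0.42) and CG11089 (-2.58 ± 0.48) were also lower with tumours. CG30203 had 0 counts in the 4 tumour libraries and 11 in the controls, at least 3.92-fold lower with tumours against a floor of 3 counts over the group. Its fitted change of -4.95 was -4.35 without replicate 4 of control day 4. Replicate 2 of control day 4, the one with 1567 CPM of salivary gland markers, held the lowest control value for 37 of 64 members. Without the 2 control libraries richest in those markers, 25 members were called lower and 2 higher.

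**Figure D3:**
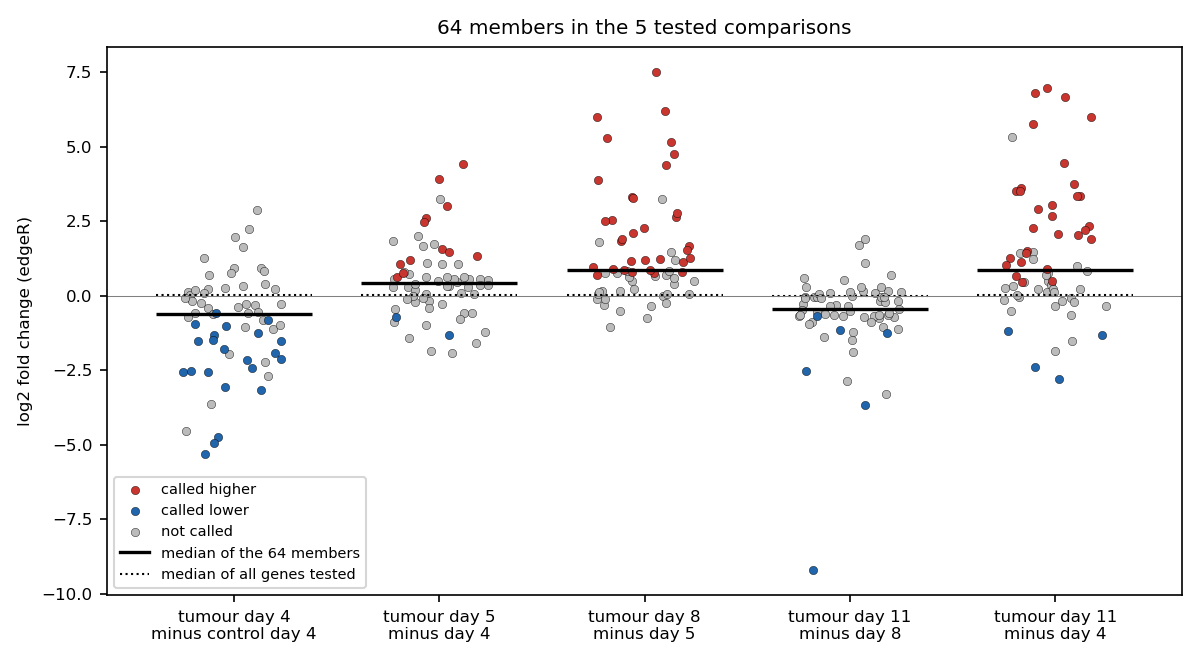
Each point is a member's log2 fold change (edgeR) in one of the 5 comparisons, red where called higher, blue where called lower and grey where not called, with solid bars at the members' medians of -0.60, 0.43, 0.88, -0.46 and 0.88 from left to right. The dotted bars, the medians of all genes tested, lie between 0 and 0.03, and blue points gather at left and red points at tumour day 8 against day 5.

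Between tumour days 5 and 4, over the interval of the control induction, the share of members that rose was near that of all genes tested. At tumour day 5 against tumour day 4, 12 members (18.8%) were called higher and 2 (3.12%) lower (edgeR's quasi-likelihood test, p adjusted by Benjamini-Hochberg), against 19.6% and 24.5% of all genes tested. The median was 0.43 over the members and 0.02 over all genes. CG31076 had 2.58, 4.7, 15.8 and 9.94 CPM at day 5 (4.42 ± 0.68 over day 4, adjusted p = 1.95e-05), overlapping its control day 4 libraries. The change was 5.05 without the 2 day 5 libraries richest in gut and testis markers. CG11089 rose 2.62 ± 0.48 and CG13116 3.01 ± 0.72, which was 3.73 without replicate 1 of tumour day 4. CG6012 was called higher on 44 counts at day 5 against 2 at day 4, a ratio of 18.5 with an exact binomial 95% interval of 4.81 to 157 that covers counting error only. It had 2.28 CPM in replicate 3 of day 5 and 0 in the other 3 libraries, and without replicate 3 its fitted change was -2.59 in place of 3.92. The call also ended without any 1 replicate of tumour day 4. CG8475, a phosphorylase kinase subunit, had 33.1, 37.9, 41.1 and 34.6 CPM at day 5 against 52.4, 64.2, 61.0 and 60.5 CPM at day 4, with no overlap (-0.70 ± 0.17, adjusted p = 0.00176), but it was at -0.28 (adjusted p = 0.2) with library totals as the only scaling. CG9497 was lower too (-1.32 ± 0.40), at -2.32 without the 2 gut-rich libraries, and its call ended with only the groups compared in the model (adjusted p = 0.0598).

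About as many members rose between tumour days 8 and 5 as over the whole tumour course, and none was called lower. At tumour day 8 against tumour day 5, 33 of 64 members (51.6%) were called higher and 0 lower (edgeR's quasi-likelihood test, p adjusted by Benjamini-Hochberg), against 12% and 14% of all genes tested. At an unadjusted p under 0.05, 38 were higher and 0 lower, and DESeq2 called 33 and 0. The rule bounded both groups by the same upper limit and set no order between them. The median was 0.88 over the members and 0.01 over all genes. In 30 members (46.9%) all day 8 libraries exceeded all day 5 libraries, as in 15% of all genes tested. The 33 members had a median of 2.64% of control day 5 at tumour day 5, 13.5% at day 8 and 11.6% at day 11. With each library left out in turn 28 to 33 members were called higher, and 22 without replicates 1 and 2 of tumour day 5, which held the most gut and testis markers. Replicate 4 of tumour day 8 was the highest of its group for 45 of 64 members. In the same comparison 6 of 10 haemocyte markers tested were called higher and 1 lower, and 1 of 7 imaginal disc markers higher and 0 lower, and their part in the members' rise was not tested.

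The largest rises were of genes nearly silent at tumour day 5. CG34206 had 887 counts over the 4 libraries of day 8 and 3 at day 5, a ratio of 227 (exact binomial 95% interval 77.5 to 1100, counting error only). Its fitted change was 7.52, or 5.92 without replicate 4 of day 8. CG8850 (FBgn0033708; 2R, 12298747 to 12302240) had 3.85, 8.35, 6.13 and 12.1 CPM at day 8 and 0, 0, 0.104 and 0.273 CPM at day 5 (6.21 ± 0.54, adjusted p = 4.77e-08, edgeR). The groups did not come near each other, and the change was 7.46 without replicate 4 of day 5 and 5.31 without the 2 gut-rich libraries. CG9812 rose 5.99 ± 0.78, or 7.48 without replicate 3 of day 5, 5.30 without replicate 4 of day 8 and 5.17 without the gut-rich libraries. CG5554 rose 3.32 ± 0.32, at 156, 169, 237 and 332 CPM at day 8 against 17.8, 13.6, 34.4 and 23.6 CPM at day 5. CG2201, a choline kinase by sequence, had 14.1, 15.4, 14 and 20 CPM at day 8 against 4.87, 2.35, 5.18 and 4.59 CPM at day 5 (1.89 ± 0.21). CG7227, of the CD36 family and named here after its values were seen, had 115 counts at day 8 and 2 at day 5, a ratio of 44.2 (12 to 369, counting error only).

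**Figure D4:**
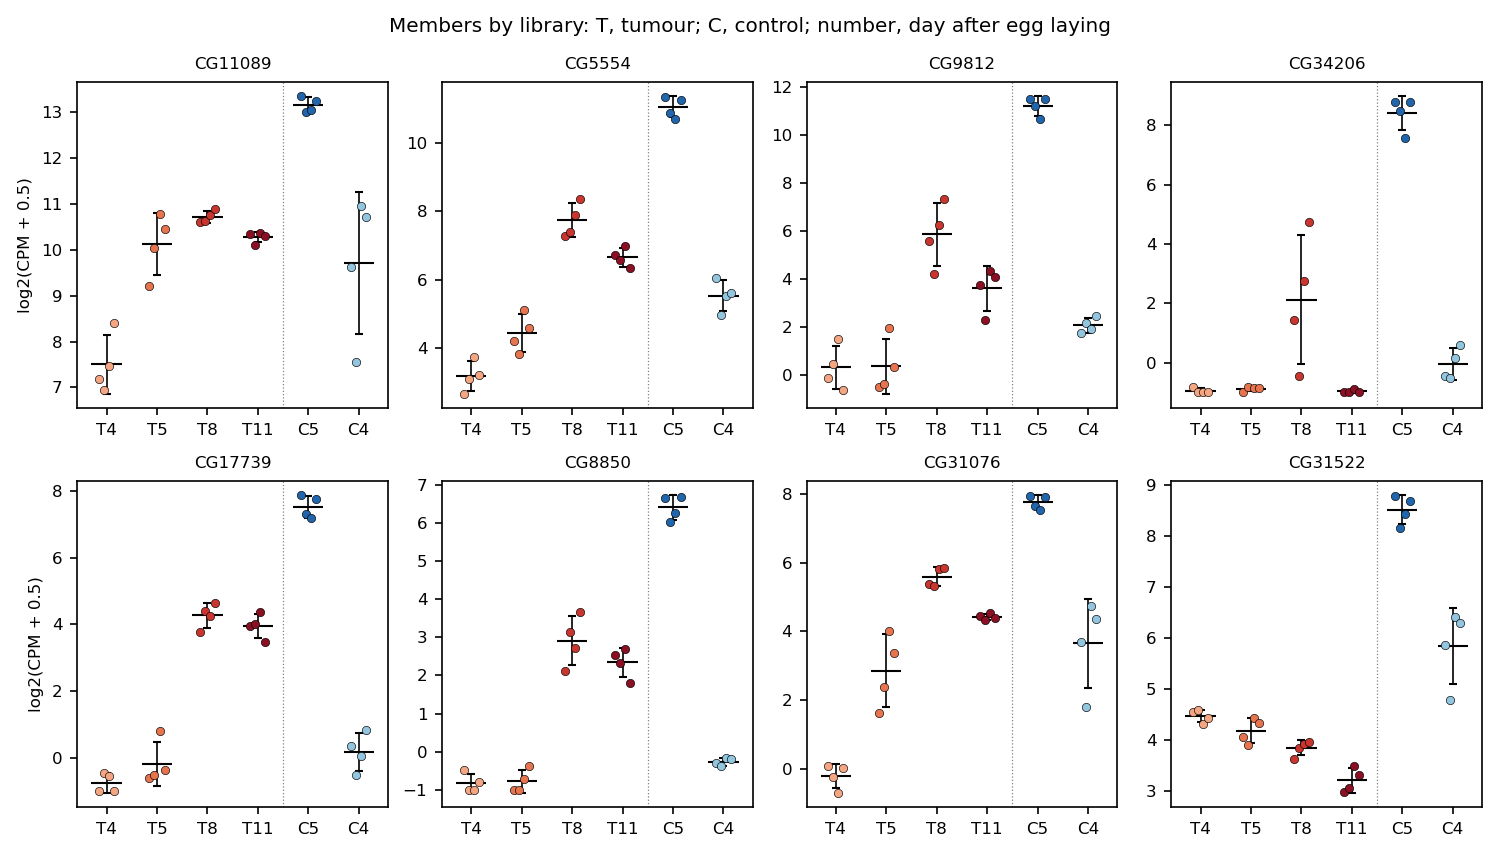
Points are the 4 libraries of a group as log2(CPM + 0.5), with bars for the mean and SD, for tumour days 4, 5, 8 and 11 (T4 to T11) and control days 5 and 4 (C5, C4) in 8 members. CG11089, CG5554, CG9812, CG17739, CG8850 and CG31076 stand higher at T8 than at T4, CG34206 leaves the floor at T8, CG31522 is lower at T11 than at T4, and in each panel C5 is above all tumour points.

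Between tumour days 11 and 8 no member was called higher. At tumour day 11 against day 8, 0 members were called higher and 6 lower (edgeR's quasi-likelihood test, p adjusted by Benjamini-Hochberg), against 1.72% and 1.62% of all genes tested. At an unadjusted p under 0.05, 2 were higher and 23 lower, and DESeq2 called 1 higher and 11 lower. The median was -0.46 over the members and 0 over all genes, and in 16 members (25%) every day 11 library lay below every day 8 library, as in 7.51% of all genes tested. In 2 members (3.12%), CG30002 and CG2201, every day 11 library lay above every day 8 library, against 9.69% of all genes tested. The comparison shares the day 8 libraries with that of day 8 against day 5. CG34206 had 1 count at day 11 against 887 at day 8, so day 8 was 1120 times higher (exact binomial 95% interval 201 to 44400, counting error only). CG14569 had 0.0372, 0, 0 and 0.114 CPM at day 11 against 0.385, 0.613, 0.216 and 1.14 CPM at day 8 (-3.66 ± 0.83, adjusted p = 0.0151). CG9812 was -2.52 ± 0.62 (adjusted p = 0.0274). The calls depended on single libraries. The number called lower was 1 without replicate 4 of day 8 or replicate 2 of day 11, 2 without replicate 3 of day 8 or replicate 3 or 4 of day 11, and 3 without replicate 1 of day 11. CG9812 stood at -1.83 (adjusted p = 0.109) without replicate 4 of day 8, and its call also ended without replicate 3 of day 8 or any 1 replicate of day 11 (adjusted p from 0.0507 to 0.0895). CG14569 stood at -3.11 (adjusted p = 0.0523) without replicate 4 of day 8 and at -5.01 without replicate 4 of day 11, and its call ended without replicate 2 (adjusted p = 0.0556) or 3 (adjusted p = 0.0615) of day 11. The fitted change of CG34206, -9.21, was -7.61 without replicate 4 of day 8 and -10.39 without replicate 3 of day 11. With only the groups compared in the model 12 members were called lower.

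Over the whole course, tumour day 11 against tumour day 4, 30 members (46.9%) were called higher and 4 (6.25%) lower (edgeR's quasi-likelihood test, p adjusted by Benjamini-Hochberg), against 29.9% and 32.8% of all genes tested. The rule bounded tumour day 11 from above and did not use tumour day 4, so the choice limited how far members could rise. The median was 0.88 over the members and 0.03 over all genes. In 26 members (40.6%) every day 11 library exceeded every day 4 library, as in 28.9% of all genes tested. The comparison shares the tumour day 4 libraries with that of tumour against control at day 4. CG17739 (FBgn0033710; 2R, 12306528 to 12310412) had 15, 15.6, 20.3 and 10.6 CPM at day 11 against 0, 0.236, 0.186 and 0 CPM at day 4 (6.98 ± 0.58, adjusted p = 1.48e-09), and 7.68 without replicate 2 of day 4. CG8850 was 6.01 ± 0.62 higher, and 7.39 without replicate 1 of day 4. CG31076 was 5.76 ± 0.66 higher. CG30203 and CG34296 had 0 counts at day 4 and 76 and 86 at day 11, at least 12.9-fold and 14.6-fold higher against 3 counts over the group. For CG34296 2.28 CPM came from replicate 3 of day 11, against at most 0.342 CPM in the other 3 libraries, and its fitted change was 5.01 without it in place of 6.82. CG31522 was lower, at 7.29, 7.76, 10.7 and 9.35 CPM at day 11 against 22.7, 23.5, 19.4 and 21.1 CPM at day 4 (-1.30 ± 0.24, adjusted p = 8.13e-05). With library totals as the only scaling, which moved the median of all genes to 1.06, it was -0.27 (adjusted p = 0.33). CG7841 was called lower as well (-1.17 ± 0.50, adjusted p = 0.0475), a call that ended without any of replicates 2, 3 and 4 of day 4 or 1, 2 and 4 of day 11 (adjusted p from 0.0555 to 0.225). Of all 64 members 15 were called in no tested comparison.

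The 4 serine proteases among the members were all called higher at tumour day 8 than at day 5, as were 33 of 64 members (51.6%) and 12% of all genes tested. By the SP synonyms of the RefSeq annotation 52 CG-numbered genes tested are of that family, and 4 of them (7.69%) were members, beside 64 of 2785 (2.3%) of all CG-numbered genes tested. They were CG1773 (2R, 9706267 to 9707580), CG30002 (2R, 9704384 to 9706147), CG10764 (2R, 17453399 to 17455729) and CG7142 (3R, 18278181 to 18279522), the last named after its values were seen. CG1773, the most abundant, had 8.00, 6.25, 8.98 and 9.92 CPM at tumour day 4, 9.28, 13.0, 15.7 and 10.7 CPM at day 5, 48.1, 58.1, 83.3 and 113 CPM at day 8 and 80.2, 89.7, 98.5 and 66.4 CPM at day 11. Its controls held 669, 478, 456 and 635 CPM at day 5 and 42.1, 9.02, 48.3 and 49.2 CPM at day 4. Day 8 and day 11 tumour libraries overlapped each other and lay above all day 5 tumour libraries. All 4 were higher at tumour day 8 than at day 5, by 2.64 ± 0.37 for CG1773, 2.27 ± 0.42 for CG30002, 1.68 ± 0.36 for CG10764 and 2.11 ± 0.42 for CG7142, and CG30002 was at 3.05 without the gut-rich libraries. All 4 were also higher at day 11 than at day 4, by 1.42 to 4.46, as were 46.9% of the members and 29.9% of all genes tested. CG30002 had 11.1, 8.78, 9.79 and 8.93 CPM at day 11, above each of its day 8 libraries of 2.96, 3.21, 5.91 and 5.71 CPM. The difference did not pass the test, and such a gap was seen in 3.12% of members and 9.69% of all genes tested. The gut markers are proteases in part. None of the 4 members is on that list, which does not show where they are expressed. The part of gut RNA in their values was not tested.

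**Figure D5:**
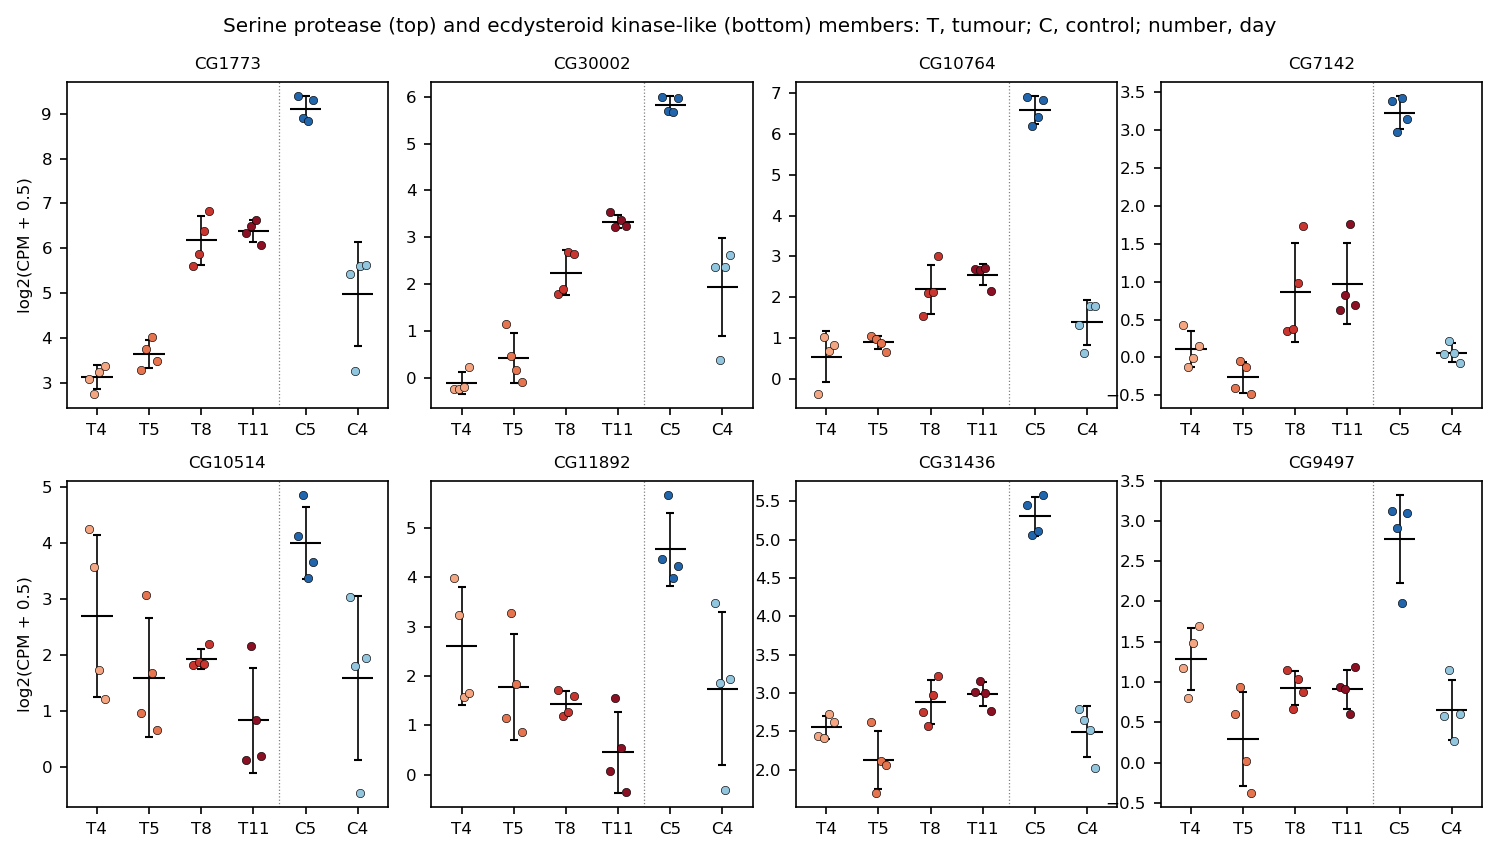
Points are the 4 libraries of a group as log2(CPM + 0.5), with bars for the mean and SD, for tumour days 4 to 11 (T4 to T11) and control days 5 and 4 (C5, C4). The 4 serine proteases in the top row stand higher at T8 and T11 than at T5, while CG10514 and CG11892 in the bottom row spread widely within T4, T5, T11 and C4.

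Ecdysteroid kinase-like genes, whose founding insect member phosphorylates ecdysteroids in the silkworm, gave 4 members of 31 CG-numbered genes tested (12.9%, beside the same 2.3%): CG10514 (3R, 25278427 to 25279846), CG11892 (3R, 25281548 to 25283237), CG31436 and CG9497. CG10514 had 0.595, 3.99, 1.29 and 0.656 CPM at tumour day 11 and 18.5, 11.3, 2.85 and 1.82 CPM at day 4. CG11892 had 0.558, 2.43, 0.952 and 0.285 CPM at tumour day 11 and 15.2, 8.96, 2.48 and 2.65 CPM at day 4. In both genes replicate 2 was the highest at tumour day 11 and replicates 1 and 2 at tumour day 4, and in controls replicate 2 was the highest at day 5, at 28.2 and 49.8 CPM, and replicate 1 at day 4. They were called lower at day 11 than at day 4, by -2.40 ± 0.81 for CG10514 (adjusted p = 0.0138) and -2.81 ± 0.82 for CG11892 (adjusted p = 0.0057). Without replicate 1 of day 4 CG10514 was at -1.72 (adjusted p = 0.0761) and CG11892 at -2.18 (adjusted p = 0.0312), and without replicate 2 of day 11 they were at -3.34 and -3.62. CG17027, an inositol monophosphatase by its synonym, had 19.3 CPM in replicate 1 of tumour day 4, and 27 CPM in replicate 2 of control day 5, again the highest of their groups. CG31436, named after its values were seen, had 6.25, 5.42, 7.38 and 8.87 CPM at tumour day 8 against 5.68, 2.75, 3.84 and 3.66 CPM at day 5, a rise of 0.80 ± 0.20.

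The 64 members are all annotated as protein coding and lie on all major arms: 14 on 2L, 20 on 2R, 12 on 3L, 15 on 3R and 3 on X. The shares on 2R (31.2%) and X (4.69%) compare with 20.4% and 15.7% of protein-coding genes, a difference that was not tested. Members adjoin in 4 places. CG17739 and CG30203 lie 276 bp apart on one strand, CG30002 and CG1773 119 bp apart on one strand, CG10514 and CG11892 1701 bp apart on opposite strands, and CG30411 lies within CG9812 on the opposite strand. Both genes of the first pair rose at tumour day 8, with CG30203 at 0.685, 1.56, 1.51 and 1.29 CPM at tumour day 8 against 0.152, 0, 0.0519 and 0 CPM at day 5, and CG17739 at 13.3, 20.6, 18.4 and 24.7 CPM against 0.152, 0.201, 1.24 and 0.273 CPM. CG17739 rose 5.30 ± 0.45, or 6.47 without replicate 3 of day 5 and 4.64 without the gut-rich libraries, and CG30203 4.38 ± 0.68, or 5.65 without replicate 1 of day 5 and 5.27 without the gut-rich libraries (edgeR). CG30411 was called in no tested comparison. It had 4.88 CPM in replicate 1 of tumour day 8 and at most 0.561 CPM in the other 3, and 4.92 and 2.55 CPM in replicates 4 and 2 of tumour day 5 and 0 in the other 2. Salivary gland markers summed to 208 CPM in that day 8 library and to 245 and 82.2 CPM in those of day 5, the highest of their groups, and their part in these values was not tested. The use of strand in counting is not given in the sources used here, so 5 members with over 20% of exon length shared with another gene are uncertain. CG8850 shares 80% with CG42700 on the opposite strand, which was at 3.24 CPM at control day 5. CG8475 and CG7227 overlap antisense RNAs, CG34253 a long noncoding RNA, and CG44286 the gene CG8788, which had 0 CPM in every group.

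The ecdysone response list, 28 genes of which 25 were tested and none is a member, was called in part in every comparison. Between control days 5 and 4, 15 were called higher and 3 lower, against 25.8% and 29.2% of all genes tested, and at tumour day 5 against control day 5, 5 were higher and 17 lower, against 26.7% and 28.2% (edgeR's quasi-likelihood test, p adjusted by Benjamini-Hochberg). These comparisons share the control day 5 libraries. At tumour day 4 against control day 4, 2 were higher and 9 lower, against 14.6% and 10.5% of all genes tested. Eip63F-1, a calcium-binding protein, was at 1.64 CPM with tumours against 13.9 CPM in controls (-3.07 ± 0.46) and br at 87.4 against 274 CPM (-1.65 ± 0.31). E23, a transporter gene, was at 4.87 against 11.1 CPM (-1.21 ± 0.33), a call that ended without replicate 4 of control day 4 (adjusted p = 0.0529). Eig71Ee had at most 0.14 CPM with tumours, against 331 CPM in replicate 2 of control day 4 and at most 0.936 CPM in the other 3 controls. That replicate is the one rich in salivary gland markers, a list that includes Eig71Ee itself. Without that replicate the fitted change of Eig71Ee was -4.11 (adjusted p = 0.627) in place of -11.05. With each library left out, 4 to 8 genes of the list were lower, the fewest without replicate 2 of tumour day 4.

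At tumour day 5 against day 4, 4 genes of the ecdysone list were higher and 2 lower, against 19.6% and 24.5% of all genes tested. The number lower was 0 without replicate 2 of tumour day 4 or replicate 1 of tumour day 5, and 1 without replicate 1 or 4 of tumour day 4 or replicate 3 or 4 of tumour day 5. The number higher was 6 without replicate 3 of tumour day 5, in place of 4. At tumour day 8 against day 5, 6 were higher and 2 lower, against 12% and 14%. Eip93F, a transcription factor of metamorphosis, was at 20.2 CPM at day 8 against 0.37 CPM at day 5 (5.70 ± 0.46, edgeR, adjusted p = 2.23e-08). The nuclear receptor genes Eip78C (8.3 against 0.476 CPM, 4.09 ± 0.39) and Hr4 (8.11 against 1.1 CPM, 2.88 ± 0.46) rose as well. Ldh, the lactate dehydrogenase gene, was at 0.161 CPM at day 8 against 2.04 CPM at day 5 (-3.58 ± 1.12), of which 7.21 CPM stood in replicate 3 of day 5, and without that library it was at -0.97 (adjusted p = 0.479). The number that rose was 3 without replicate 4 of tumour day 8 and 9 without replicate 3 of tumour day 5. At tumour day 11 against day 8, 2 were higher and 1 lower, against 1.72% and 1.62%, where 0 members were higher and 6 lower. Without replicate 1 of tumour day 8, 2 were lower. At tumour day 11 against day 4, 10 were higher and 2 lower, against 29.9% and 32.8%. Eip93F had means of 0.21, 0.37, 20.2 and 44.8 CPM at tumour days 4, 5, 8 and 11, against 17.6 CPM at control day 5 and 0.215 CPM at control day 4. Against control day 5, Eip93F was higher at tumour day 11 (1.35 ± 0.33, adjusted p = 0.00156, edgeR) and was not called at tumour day 8 (0.20 ± 0.33, adjusted p = 0.619). No member's mean could exceed control day 5 on those days, since the rule bounded it. Of this list br, Eip78C, Hr4, Hr39 and E23 met the numeric rule that chose the members.

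The same numeric rule was met by 97 tested genes whose symbol is not a CG number or that matched no symbol. The most abundant at control day 5 were Fbp1, the storage protein receptor, Hsp23 and Hsp27, small heat shock proteins, Gart and Prps, enzymes of purine synthesis as is the one encoded by CG11089, the phagocytic receptor NimC2, Ama and br. Gart had means of 151, 583, 1670 and 1490 CPM at tumour days 4, 5, 8 and 11, and 5877 CPM at control day 5 and 398.5 CPM at control day 4. CG4080 lies 1132 bp from Hsp27. At tumour day 8 against day 5, 33 of 64 members (51.6%) and 52 of those 97 genes (53.6%) rose, and at day 4, 22 of 64 members (34.4%) and 41 of the 97 (42.3%) were lower with tumours. Of 31 CG-numbered genes that met the control part and day 5 part of the rule but reached 33.3% of control day 5 at tumour day 8 or 11, 26 (83.9%) rose at day 8, a share to which their choice contributes. None of these differences between sets was tested.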

How the data were processed

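Fat body RNA was sequenced as read pairs from 24 libraries. The authors deposited whole-number counts per gene and library, without normalization. Per the submitters' processing notes, the tools include STAR 2.5.4a and the build is BDGP6, with no role stated. Which program counted the reads, on which annotation and whether by strand is not given in the sources used here. Symbols were matched by identifier for 17560 of 17698 genes, and positions come from the BDGP6.54 annotation.

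Counts were filtered with filterByExpr on the 6 groups (8707 genes left), scaled by TMM (factors 0.686 to 1.502) and tested with edgeR 4.0.16 in R 4.3.3 (limma 3.58.1) by the quasi-likelihood test with the robust option, in 1 model with a mean for each group over all 24 libraries. A gene was called where p adjusted by Benjamini-Hochberg was under 0.05. Each SE was taken as the absolute log2 fold change divided by the square root of F. The test was checked on simulated counts. DESeq2 1.42.0 was an alternative. Libraries of a group differed in every pair (chi-square per degree of freedom 8.99 to 221), so none was a copy. The biological coefficient of variation was 0.284.

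The members, the lists and the comparisons were chosen with earlier results of these data known. Control day 5 against 4 and tumour days 5, 8 and 11 against control day 5 chose the members and are described without a test. Named members were the 10 highest at control day 5, the 10 with the highest ratio to the tumour groups, the largest called changes (up to 6 or 3 in each direction), adjoining members and those nearest the limits of the rule. Of the ecdysone list the 4 largest called changes were named. Marker lists of 12 kinds were summed per library.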

Additional observations from a re-analysis of the deposited data

Results flagged for a closer look

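In 175 groups of 4 libraries with a mean of at least 1 CPM, over 41 members, 16 groups (9.14%) held a library that stood apart. Its gap to the nearest other filled more of the range than Dixon's 95% limit allows. Chance flags about 1 in 20. However, CG10912 and CG33346 were included because of their wide spread at control day 5, with SDs of 196% and 161% of the mean. Their choice thus favoured flags. At tumour day 5, replicate 1 was high for CG7841 (4.87 CPM, against at most 1.01 CPM). At tumour day 8, replicate 4 was high for CG8475 (67.5 CPM) and CG10514 (4.11 CPM), and replicate 1 for CG30411 (4.88 CPM). At tumour day 11, replicate 3 stood apart for CG5618 (18.1 CPM, against 7.36 to 7.89 CPM in the others), CG10912 (11.4 CPM) and CG33346 (4.52 CPM), replicate 4 was low for CG10764 (3.96 CPM) and CG8475 (40.6 CPM), and replicate 1 was low for CG17027 (1.53 CPM). At control day 5, replicate 1 stood apart for CG10912 (61.2 CPM), CG33346 (28.2 CPM) and CG15818 (19 CPM), and replicate 2 for CG11892 (49.8 CPM) and CG17027 (27 CPM). In replicate 2 of control day 4, CG9664, of the ABC transporter family, was at 13.5 CPM against 110 to 117 CPM in the others.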

How the results depend on the processing

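Of 78 called changes of named members, 1289 of 1394 settings kept direction and call, 104 lost the call and 1 reversed. The members numbered 35 at a control ratio of at least 8, 18 at a tumour limit of 10% and 47 with library totals only (41 shared). The tests with that scaling were chosen after seeing the data. With TMM the medians of all genes were 0.03 (day 11 against 4), 0.01 (8 against 5) and 0.02 (5 against 4). The scaling by library totals moved them to 1.06, 0.50 and 0.43. With it members called numbered 25 higher and 1 lower (day 5 against 4), 1 and 3 (11 against 8) and 49 and 1 (11 against 4), and ecdysone genes 11 higher and 0 lower (5 against 4), 14 higher (8 against 5) and 19 higher and 0 lower (11 against 4). It turned CG31636 to 0.50 (8 against 5) and 1.00 (11 against 4), CG8475 to 0.69, CG5282 to 0.80 and CG9304 to 0.67 (all 11 against 4). Day 11 against 8 gave 1 higher with RLE scaling, without the 20 most abundant genes or without the gut-rich libraries, 2 higher and 12 lower with only the groups compared or without the salivary-rich controls, 1 and 11 with DESeq2, and 2 lower without the filter. Day 5 against 4 gave 1 lower with only the groups compared. Tumour against control at day 4 gave 1 higher without the robust option or the gut-rich libraries and 2 without the salivary-rich controls or with DESeq2. Ecdysone genes lower at day 4 numbered 5 without the filter and 4 with only the groups compared, those higher at day 5 against controls 3 with only the groups compared, and those at day 8 against 5 numbered 3 higher without the gut-rich libraries and 1 lower with only the groups compared. Ecdysone genes lower at day 5 against 4 numbered 0 with RLE scaling, without the 20 most abundant genes, without the gut-rich libraries or with DESeq2, and 1 with only the groups compared. Those higher at day 11 against 8 numbered 4 (and 2 lower) with only the groups compared, 4 without the salivary-rich controls and 5 with DESeq2. With each library left out, members called higher and lower numbered 0 to 1 and 20 to 25 (day 4), 10 to 15 and 2 to 4 (5 against 4), 28 to 33 and 0 (8 against 5), 0 to 1 and 1 to 6 (11 against 8) and 28 to 31 and 3 to 4 (11 against 4), and the rule gave 58 to 74 members. Ecdysone genes numbered 2 to 3 and 4 to 8 (day 4), 3 to 6 and 0 to 2 (5 against 4), 2 to 3 and 1 to 2 (11 against 8), 3 to 9 and 1 to 2 (8 against 5), 9 to 11 and 2 to 3 (11 against 4), 14 to 16 and 3 to 4 (control day 5 against 4) and 4 to 5 and 15 to 17 (day 5 against controls). CG6012 ranged from -2.59 to 4.41 (5 against 4) and from -1.48 to 5.52 (8 against 5), turning without replicate 3 of tumour day 5. The causes were not tested. With the replicate number as a block, members called higher and lower were 0 and 23 (day 4), 13 and 2, 33 and 0, 0 and 8, and 32 and 3, and 1 ecdysone gene was lower at day 8 against 5. Libraries of the same number correlated at -0.30 to 0.512 (median 0.0186, 17 of 60 pairs over 0.1). Of 24 libraries, 5 correlated best with their own number. The pairs were pooled over all days, so these values cannot decide whether libraries of the same day were paired by number. The main model did not pair libraries. Members of few counts are limited by depth.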

Other observations

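CG6891, whose synonym is that of a coactosin-like actin-binding protein, had 13.3, 10.8, 18.5 and 17 CPM at tumour day 8 against 2.38, 3.96, 8.35 and 1.91 CPM at tumour day 5, without overlap (1.84 ± 0.36, edgeR, adjusted p = 0.000656), and 2.43 without replicate 3 of tumour day 5. CG11034, of the dipeptidyl peptidase family, had 15.6, 43.2, 27.8 and 51 CPM at day 8 against 2.84, 2.48, 1.66 and 2.29 CPM at day 5 (3.89 ± 0.44). CG2201, described above at day 8, was at 25.2, 25.4, 24.8 and 27.3 CPM at tumour day 11, above every day 8 library (14.1, 15.4, 14 and 20 CPM). It was not called there, and such a gap was seen in 3.12% of members and 9.69% of all genes tested. CG9304 kept to between 22.6 and 40.3 CPM in all 16 tumour libraries and between 22.7 and 30.5 CPM at control day 4, and was called, by the same test, in no tested comparison. CG6891, CG11034 and CG9304 were named after their values were seen.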
